A study of Mus musculus with 5 samples.

Results

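Immediate early genes and heat shock genes are the fast-responding part of a cell's transcription. The set examined here held 35 genes, 25 immediate early and stress genes and 10 chaperone genes, out of 23284 symbols in the count tables. They were chosen by symbol from what they are known to do, with earlier results of these data known. Shares of the set given beside those of all genes therefore describe it and test nothing. All 35 symbols were found in the tables of all 5 libraries. RNA came from mouse forelimb buds. A single library, 1 of the 5, held forelimb bud of the CD1 strain at E10.5. There were 2 libraries of micro-dissected distal E11.5 forelimb from wild-type embryos of a mixed C57BL/6 and CD1 background, and 2 of the same tissue from Hoxa13-/-;Hoxd13-/- embryos of that background, called mutant below. The mutant Hoxa13 allele carries a neomycin cassette in the coding region and the mutant Hoxd13 allele a lacZ reporter in the first exon. Each E11.5 library came from its own pool of dissected tissue, so values are averages over embryos and over all cell types of the tissue. Neither the number of embryos behind the E10.5 library nor the time from dissection to RNA preservative was stated in the sources used.

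Immediate early genes need no new protein to be switched on. A signal at the cell surface reaches transcription factors that already sit at their promoters, such as SRF at the CArG box and CREB at the cyclic AMP response element, and the transcripts appear and decay quickly. Their products include the AP-1 factors of the FOS and JUN families, the EGR and KLF zinc finger factors, and feedback proteins such as the phosphatase DUSP1 and the mRNA-destabilising protein ZFP36. Heat shock genes are driven by heat shock factors, chiefly HSF1, bound to repeats of GAA and TTC, and their chaperones fold proteins in resting as well as stressed cells. Both classes can change while tissue is dissected, and in the limb bud some of them also lie downstream of growth factor signals.

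Reads counted in genes numbered between 45115494 and 84172202 per library. Limb mesenchyme markers (Prrx1, Prrx2, Twist1, Msx1, Tbx5 and Lmx1b) summed to 760.4 CPM (counts per 1000000 reads in genes) at E10.5, 1009 and 989 in the mutant and 877 and 813 in wild type, against at most 10.6 CPM for the hindlimb genes Pitx1 and Tbx4. Hoxd13 measured 47.7 and 40.0 CPM in the mutant libraries and 247 and 246 in wild type. Hoxa13 transcript lay between 39.8 and 50.8 CPM in all 4 E11.5 libraries, and gene counts cannot show whether it carries the cassette. Summed markers of other cell types also moved with genotype. Erythroid markers stood at 3016 and 2975 CPM in the mutant against 2406 and 2319.8 in wild type, macrophage markers at 78.3 and 75.6 against 50.4 and 63.8, and neuron and Schwann cell markers at 39.2 and 43.9 against 68.6 and 67.5. Endothelial markers summed to 267 and 246 against 226 and 233, and surface ectoderm markers to 291 and 308 against 306 and 321. None of these 40 markers was at 0 in all libraries. Reads outside genes took 34.4% and 39.6% of all read lines in the mutant and 39.2% and 30.3% in wild type, so the ranges overlapped. In tissue RNA, fewer cells of a type and less RNA per cell cannot be told apart, and the part of these markers in the results below was not tested.

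Sequences upstream of start sites are shown first, because promoter elements of this kind are what the classes are known for. A RefSeq promoter (GRCm38.p6, 250 bases before to 50 after each start site) was found for 28 of the 35 genes, 20 immediate early and 8 chaperone genes. Egr1, Egr3, Myc, Ier2, Ctgf, Hspa8 and Hsp90aa1 had none and were not searched, so the counts say nothing about them. Genes with several start sites were counted as holding a motif when any of their promoters did, and both strands were searched. The short heat shock repeat, GAANNTTC or TTCNNGAA, lay in 7 of the 8 chaperone genes and 5 of the 20 immediate early genes, against 17% of all 27025 genes with a promoter. The longer element of 3 units, GAA, TTC and GAA spaced by NN, or its complement, which contains the short repeat, lay in 3 of 8 chaperone genes (Hsph1, Hspe1 and Hspd1) and 0 of 20 immediate early genes, against 0.662% of all genes. The Hspe1 and Hspd1 matches are the same bases of chr1 read from opposite strands, so both counts of chaperone genes hold that element under both names. Hspa1a and Hspa1b, whose upstream bases are nearly identical, also count separately among the 7. Below, capitals mark the short repeat. The stretches cover bases 130 to 51 before the start site for Hspa1a (chr17:34972207-34972286, minus strand), Hspa1b (chr17:34959289-34959368, minus strand), Hspb1 (chr5:135887789-135887868, plus strand) and Dnajb1 (chr8:83608045-83608124, plus strand), bases 45 to 16 for Hsph1 (chr5:149636352-149636381, minus strand) and bases 95 to 66 for Hspe1 (chr1:55088053-55088082, plus strand). They were chosen because Dnajb1, Hspa1a, Hspa1b and Hsph1 carry the results on chaperones, and Hspe1 and Hspb1 show denser repeats.
Hspa1a: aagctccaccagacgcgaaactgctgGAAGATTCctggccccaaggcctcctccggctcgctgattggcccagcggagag
Hspa1b: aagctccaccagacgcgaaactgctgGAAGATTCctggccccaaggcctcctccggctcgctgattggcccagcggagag
Hspb1: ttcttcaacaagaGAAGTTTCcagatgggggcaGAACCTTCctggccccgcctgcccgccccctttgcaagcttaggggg
Hsph1: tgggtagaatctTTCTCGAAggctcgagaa
Hspe1: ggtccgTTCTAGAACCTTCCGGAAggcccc
Dnajb1: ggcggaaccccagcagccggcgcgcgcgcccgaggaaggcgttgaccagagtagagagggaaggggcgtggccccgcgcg
The Hspa1a and Hspa1b lines are letter for letter the same, and over the whole 250 upstream bases the genes differ at 3 positions. Hspe1 holds 3 overlapping short repeats in this stretch, Hspb1 holds 2, and Dnajb1 holds 0 in either of its listed promoters.

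Among immediate early genes the core of the cyclic AMP response element, TGACGT or its complement, lay in 6 of 20 promoters against 8.37% of all genes, and the full palindrome TGACGTCA, which contains it, in those of Dusp1 and Btg2, 2 of 20 against 2.03%. A CArG box lay in 2 of 20 (Egr2 and Zfp36) against 1.81% of all genes. The AP-1 site TGANTCA lay in 0 of 20 against 8.97%, and TATAAA on the sense strand in 5 of 20 against 9.77%. The TATAAA match of Junb begins at the start site itself, not upstream of it. A match or its absence within 300 bases describes the letters of that window only. Capitals below mark the cyclic AMP response core in Fos (chr12:85473810-85473889, plus strand, bases 80 to 1 before the start site), Dusp1 (chr17:26508593-26508672, minus strand, bases 200 to 121) and Btg2 (chr1:134079276-134079355, minus strand, bases 200 to 121).
Fos: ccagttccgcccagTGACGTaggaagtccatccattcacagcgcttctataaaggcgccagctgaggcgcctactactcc
Dusp1: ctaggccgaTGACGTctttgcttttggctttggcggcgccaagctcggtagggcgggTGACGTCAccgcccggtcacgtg
Btg2: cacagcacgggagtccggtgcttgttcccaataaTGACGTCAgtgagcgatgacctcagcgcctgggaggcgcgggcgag
In Gadd45b (chr10:80930033-80930062, plus strand, bases 58 to 29) and at the fourth of 6 listed start sites of Sgk1 (chr10:21992143-21992222, plus strand, bases 80 to 1), 2 genes that fell in the mutant, capitals mark TATAAA.
Gadd45b: cccgggaagtcaTATAAAccgctcgcagcg
Sgk1: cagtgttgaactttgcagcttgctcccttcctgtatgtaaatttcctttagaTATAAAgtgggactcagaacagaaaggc
Counts per gene do not tell which of the Sgk1 start sites was used, and site 6 of Sgk1 holds TATAAA as well. Promoters of Fos, Junb and Cyr61, which did not pass the test in the mutant, also hold it. Those of Fosb and Dnajb1, which fell, do not.

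The 35 genes differed widely in level. Per kilobase of merged GENCODE exons, mean wild-type levels ran from 1063 CPM per kilobase for Hspa8, the constitutive HSP70, to 0.00503 for Egr3. The next highest were Hsp90aa1 (493), the mitochondrial chaperonin genes Hspd1 (323) and Hspe1 (170.2), and Dnaja1 (49.3), a J-domain partner of HSP70. Jund led the immediate early genes at 35.6 CPM per kilobase, followed by Ier2 (16.7), Ier5 (13.6), Btg2 (10.4), Cyr61 (10.2) and Jun (9.50). The genes most often read as signs of acute stimulation were low. Fos stood at 0.596, Hspa1b at 0.67, Hspa1a at 0.295, Egr1 at 0.0865 and Fosb at 0.0467 CPM per kilobase in wild type. The levels of several genes are uncertain. Of the windows of 50 bases in the longest coding transcript, 74.8% of Hspa8, 66.3% of Hspa1a, 62.3% of Hspa1b, 58.5% of Hsp90aa1, 51.6% of Hspb1, and 44.8% each of Hspe1 and Hspd1 also occur in another gene, pseudogenes included, against 28.8% for Dnaja1 and 0% for Hsph1. An antisense transcript covers 52.6% of the exon bases of Jund and a transcript on the other strand covers 23.2% of those of Ctgf, and whether the counting used strand was not stated in the sources used.

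**Figure D1:**
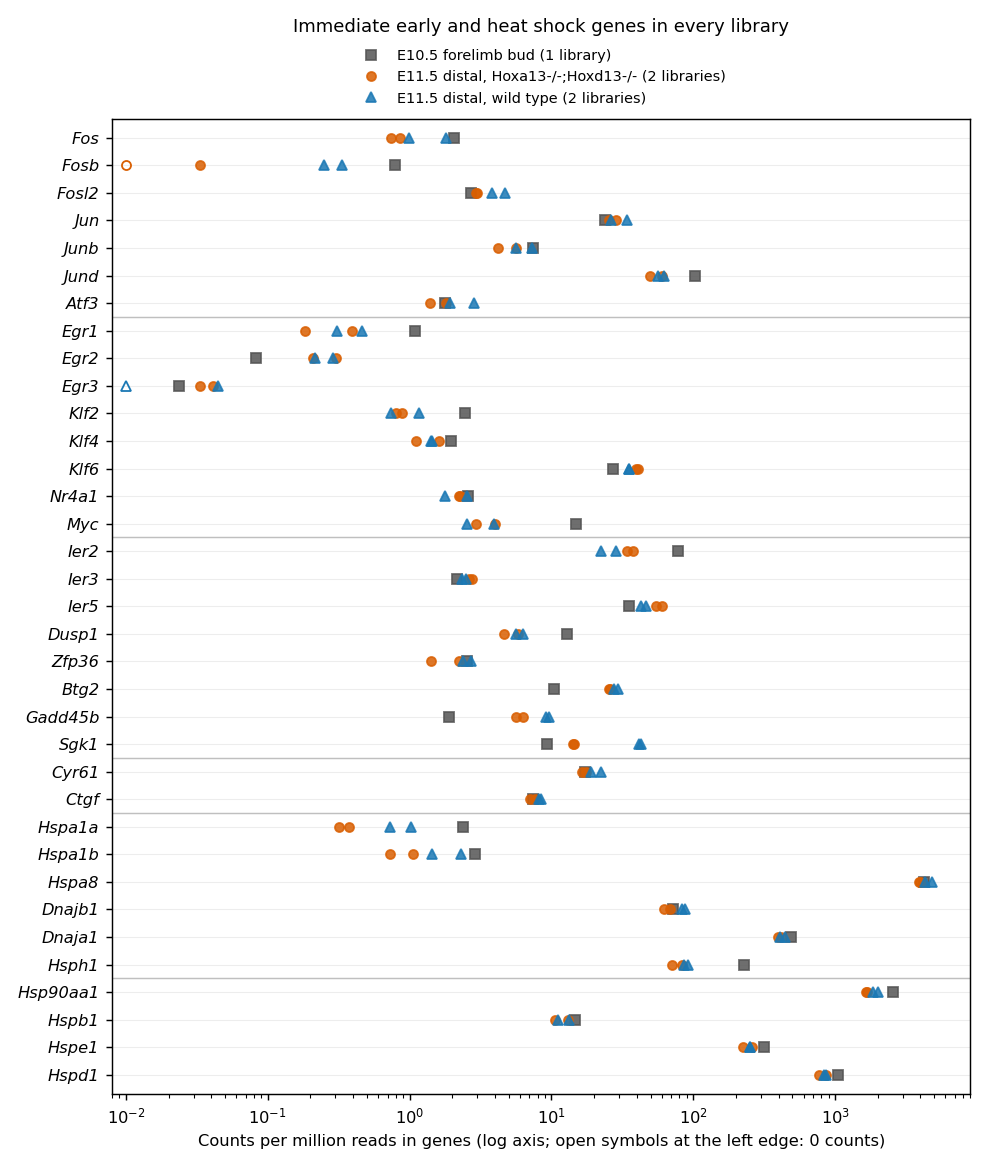
CPM of the 35 genes in each of the 5 libraries, on a log axis, with grey squares for E10.5, orange circles for the mutant and blue triangles for wild type, and open symbols at the left edge for 0 counts. Lines separate the role groups. Sgk1 stands at 14.3 and 14.5 CPM in mutant libraries and 43.0 and 41.5 in wild type, and the E10.5 library stands above all others for Myc, Ier2 and Hsph1.

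In the mutant, Sgk1, Gadd45b, Fosb and Dnajb1 fell and Ier2 rose, and the other 29 genes tested did not pass the threshold of an adjusted p below 0.05 (edgeR quasi-likelihood test, Benjamini-Hochberg adjustment over all 16166 genes tested). Egr3, with counts of 0 to 2 in each library, was below the filter on low counts, so 34 of 35 genes were tested. Fosb passed the filter through the wild-type libraries only, where it was high, so its call follows in part from the filter. For the 33 genes that reached the filter in both genotypes, 1 gene rose (3.03%, against 3.82% of all genes tested) and 3 fell (9.09%, against 3.34%), and 12.1% were called in either direction, against 7.16%. The median log2 fold change was -0.18 over the 33 genes and -0.000819 over all genes tested, and 26 of 33 (78.8%) had a value below 0, against 50.2% of all genes tested. The mutant and wild-type libraries did not overlap in CPM for 60.6% of the 33 genes, against 49.5% of all genes tested. Of these, 16 were lower in the mutant and 4 higher, where the backgrounds were 22.9% lower and 26.6% higher. These shares of all genes are also the background wherever a single gene's libraries are said below not to overlap. At an unadjusted p below 0.05 stood 13 of the 33 (39.4%), against 19.4% of all genes tested. Counted with Fosb, the number of fallen genes was 4, and it was 6 with no filter, when Hspa1a and Hspa1b also passed, and 5 with all 5 libraries in the fit, when Hspa1a also passed. Calls also moved when single libraries were left out, among the members and over all genes. The fit without wild-type replicate 1 called more fallen members, and it called more genes of the whole table in both directions. Such a fit leaves 1 library in a genotype, so its calls are not read as a result about the members. The number risen was 0 without mutant replicate 1, and 2 with no filter, by DESeq2 or with a replicate block. The libraries were separate pools, and p-values measure the spread between 2 pools per genotype.

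**Figure D2:**
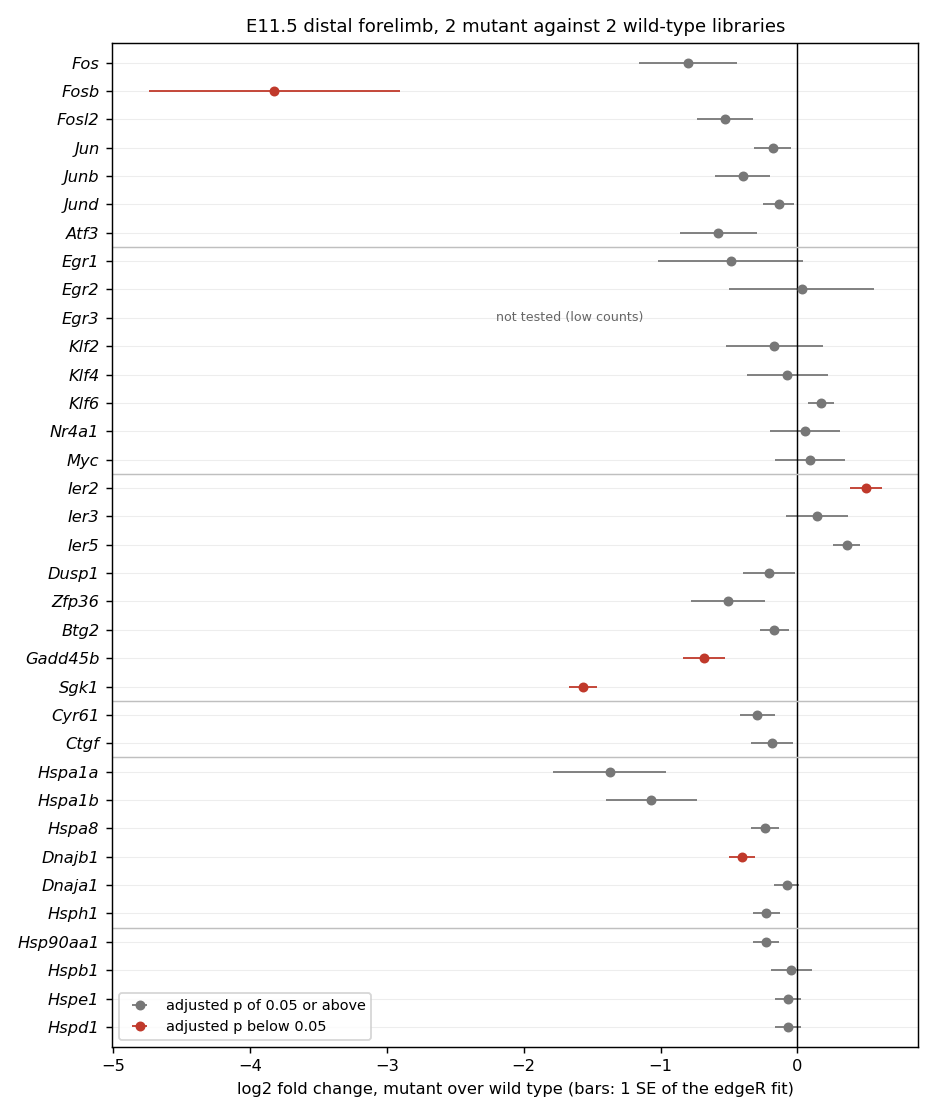
Log2 fold change of the mutant over wild type for the 34 genes tested, with bars of 1 standard error of the edgeR fit, and red for an adjusted p below 0.05. Sgk1 (-1.57) and Fosb (-3.82) lie farthest to the left among the red points, and Ier2 (0.50) is the red point to the right. All 10 chaperone genes lie below 0, where 50.2% of all genes tested do, and Dnajb1 alone of them is red.

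Among the AP-1 factors all 7 values were below 0, where 50.2% of all genes tested lay below 0, and the group median was -0.53. The gene that passed, 1 of 7 (14.3%, against 7.16% of all genes tested), was Fosb. It reached the filter in wild type only, and the group figures include it. The values of Jun without wild-type replicate 2 (0.05) and of Jund without mutant replicate 2 (0.000796) were not below 0. Fosb, a FOS family partner of JUN proteins, had 2 and 0 counts in the mutant libraries and 15 and 14 in wild type, the libraries that carried it past the filter. That is 0.0334 and 0 CPM in mutant libraries and 0.332 and 0.251 in wild type, so the groups did not overlap. The ratio of mutant to wild-type counts per library size was 0.0644, with an exact 95% interval of 0.00744 to 0.255 that covers counting error only. The log2 fold change was -3.82 (SE 0.92, adjusted p = 0.026 by edgeR). The adjusted p was 0.154 with mutant replicate 2 left out, 0.0776 with wild-type replicate 1 left out and 0.0528 with wild-type replicate 2 left out, and DESeq2 gave no adjusted p for this gene. Without mutant replicate 1 the mutant had no count.

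Fos, the founding member of the family, had 0.852 and 0.745 CPM in mutant libraries and 1.82 and 0.985 in wild type. Wild-type replicate 1 stood apart, while replicate 2 lay close to the mutant libraries (log2 fold change -0.80, SE 0.36, adjusted p = 0.244 by edgeR). Fosl2, another FOS relative, had 3.01 and 2.94 CPM against 4.74 and 3.80, with no overlap and an adjusted p of 0.168 by edgeR. Jund, the most abundant JUN gene, had 59.9 and 49.3 CPM in the mutant against 56.5 and 62.4, and the groups overlapped (-0.14, adjusted p = 0.59 by edgeR). Jun had 28.6 and 25.6 against 26.4 and 34.2, with a higher wild-type replicate 2 (-0.18, adjusted p = 0.542 by edgeR). Without wild-type replicate 1, Jun had a log2 fold change of -0.38. Junb (-0.40) and the stress factor Atf3 (-0.58) did not pass the test (adjusted p of 0.303 and 0.287 by edgeR), and their mutant libraries lay below their wild-type libraries by small margins.

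The EGR, KLF, NR4A and MYC group had no gene past the test in either direction by edgeR, 0 of 7 at an unadjusted p below 0.05, and a median of 0.03. Egr1, a zinc finger factor induced through SRF, had 11 and 19 counts in the mutant and 14 and 26 in wild type. These are 0.184 and 0.393 CPM against 0.310 and 0.466, with overlapping groups (log2 fold change -0.49, SE 0.53, adjusted p = 0.699 by edgeR). The exact 95% interval of the count ratio, 0.421 to 1.15, shows how little this depth says about Egr1. Klf6, a broadly expressed KLF factor and the most abundant gene of the group, had 40.5 and 39.7 CPM against 35.4 and 35.1. Its libraries did not overlap, and the difference did not pass the test (0.17, SE 0.09, adjusted p = 0.361 by edgeR). Myc, the growth regulator, had 4.03 and 2.92 CPM in mutant libraries and 3.97 and 2.56 in wild type, the replicates of each genotype being farther apart than the genotypes (0.09, adjusted p = 0.904 by edgeR). Klf2, a flow-responsive factor of endothelium, had 0.886 and 0.807 CPM in the mutant against 1.17 and 0.734, with overlap. Klf2 (-0.17), Klf4 (-0.07), the orphan nuclear receptor gene Nr4a1 (0.05) and Egr2 (0.03) had adjusted p-values between 0.863 and 0.986 by edgeR.

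In the group of early response proteins and feedback regulators 3 of 8 genes passed (37.5%, against 7.16% of all genes tested). Sgk1, a serum- and glucocorticoid-inducible kinase that acts in growth factor and salt signalling, had 14.3 and 14.5 CPM in mutant libraries, against 43.0 and 41.5 in wild-type libraries. The means were 14.4 ± 0.114 (SD, n = 2 pools) and 42.2 ± 1.08, and the gap between genotypes was far larger than that between replicates (log2 fold change -1.57, SE 0.10, adjusted p = 2.69e-06 by edgeR). Leaving out any library of the 4 gave values from -1.57 to -1.56. Gadd45b, a stress sensor that acts on MAP kinase signalling, had 5.63 and 6.27 CPM in mutant libraries and 9.69 and 9.19 in wild type. Its fold change was -0.68 (SE 0.15, adjusted p = 0.0193 by edgeR), and the adjusted p was 0.151 without mutant replicate 1. Ier2, a nuclear early response protein, rose from 28.3 and 22.4 CPM in wild type to 37.7 and 34.4 in the mutant (0.50, SE 0.12, adjusted p = 0.0242 by edgeR). The call of Ier2 ended without mutant replicate 1 (adjusted p = 0.131), without wild-type replicate 2 (0.0536) and with scaling to library size only (0.0533).

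Ier5, a related gene whose product acts on HSF1, had 60.6 and 54.8 CPM against 42.9 and 46.1. Its libraries did not overlap, and its adjusted p stood just above the threshold (0.36, SE 0.10, adjusted p = 0.0538 by edgeR). Ier5 passed by DESeq2 (adjusted p = 0.0398), with no filter and with a replicate block. It did not pass with scaling to library size only, DESeq2 size factors, the newer quasi-likelihood estimate or all 5 libraries in the fit. Btg2, an antiproliferative gene of the p53 response, had 25.8 and 25.6 CPM against 27.8 and 29.4 (-0.17, adjusted p = 0.429 by edgeR). Zfp36, which shortens the life of early response mRNAs, had 1.42 and 2.22 CPM in mutant libraries and 2.70 and 2.40 in wild type. The low value of mutant replicate 1 set its mutant libraries apart from each other (-0.51, adjusted p = 0.337 by edgeR). Dusp1, the MAP kinase phosphatase, had 5.80 and 4.62 CPM in the mutant against 5.63 and 6.29, with overlap. Its log2 fold change was -0.21 and that of Ier3, a survival factor, 0.15, with adjusted p-values of 0.626 and 0.804 by edgeR.

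The secreted matricellular genes Cyr61 and Ctgf, which are targets of YAP and TEAD, did not pass the test. Cyr61 had 16.4 and 17.6 CPM in the mutant against 18.9 and 22.3 (-0.29, adjusted p = 0.227 by edgeR, and 0.0263 without wild-type replicate 1). Ctgf had 7.07 and 7.68 against 8.11 and 8.45 (-0.18, adjusted p = 0.589 by edgeR). Neither gene's libraries overlapped between genotypes, which also held for 49.5% of all genes tested (22.9% lower in the mutant).

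All 6 genes of HSP70 and its partners had values below 0, where 50.2% of all genes tested lay below 0. The near-identical copies Hspa1a and Hspa1b count separately among the 6. Dnajb1 passed the test, 1 of 6 (16.7%, against 7.16% of all genes tested). Dnaja1 turned to 0.02 without wild-type replicate 2. Dnajb1, the heat-inducible J-domain protein that delivers clients to HSP70, had 68.2 and 62.1 CPM in mutant libraries and 83.5 and 87.4 in wild type (-0.41, SE 0.09, adjusted p = 0.022 by edgeR). The groups did not overlap, and without mutant replicate 2 the adjusted p was 0.268. The inducible HSP70 genes were at trace level. Hspa1a had 19 and 18 counts in the mutant and 33 and 57 in wild type, or 0.318 and 0.373 CPM against 0.731 and 1.02. Hspa1b, its near-identical copy, had 63 and 35 counts against 104 and 81, or 1.05 and 0.725 CPM against 2.31 and 1.45. Both mutant libraries lay below both wild-type libraries for each gene, and neither passed the test (Hspa1a -1.37, SE 0.41, adjusted p = 0.0714 by edgeR, and Hspa1b -1.07, SE 0.33, adjusted p = 0.0787). With no filter on low counts the adjusted p was 0.033 for Hspa1a and 0.0124 for Hspa1b. Hspa1a also had 0.0492 with all 5 libraries in the fit. The values of both genes are uncertain because reads shared by the copies could not be placed.

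Hspa8 had 3889 and 3946 CPM in the mutant against 4330.3 and 4817 (-0.24, SE 0.10, adjusted p = 0.219 by edgeR). Its wild-type replicates differed by more than its mutant replicates. Dnaja1 had 398 and 417 CPM against 406 and 445, with overlap (-0.08, adjusted p = 0.727 by edgeR). Hsph1, the HSP110 nucleotide exchange factor of HSP70, had 70.3 and 83.1 against 92.1 and 86.0 (-0.23, adjusted p = 0.225 by edgeR).

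In the group of HSP90, the small heat shock protein and the mitochondrial chaperonins 0 of 4 genes passed the edgeR test. Of all genes tested 7.16% did. An unadjusted p below 0.05 was found for 1 of the 4 (25%, against 19.4% of all genes tested). That gene was Hsp90aa1, the inducible cytosolic HSP90, with 1654 and 1686 CPM in the mutant against 1855 and 2018 (-0.23, SE 0.10, adjusted p = 0.205 by edgeR). Hspd1, the mitochondrial HSP60, had 775 and 869 CPM against 838 and 869, and its partner Hspe1 had 223 and 260.2 against 252 and 249.6. For both the range of the mutant replicates spanned wild type, and the log2 fold changes were -0.07 (SE 0.09 for each, and 0.01 for Hspd1 and 0.03 for Hspe1 without mutant replicate 1). The ratio of Hspd1 to Hspe1 counts lay between 3.32 and 3.48 in all 5 libraries. These genes are neighbours on opposite strands, and the printed Hspe1 stretch lies in an annotated exon of Hspd1. The ratio of Hspa8 to Hsp90aa1 counts was 2.35 and 2.34 in the mutant, 2.33 and 2.39 in wild type and 1.66 at E10.5. Hspb1, the small heat shock protein HSP25 of the mouse, had a log2 fold change of -0.05 (adjusted p = 0.922 by edgeR), which was 0.10 without mutant replicate 2 and 0.06 without wild-type replicate 1.

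Replicate libraries differed more for the scarce genes of the set. The median absolute log2 difference between replicates was 0.21 in wild type and 0.16 in the mutant over the 34 genes tested, against 0.16 and 0.12 over all genes tested. For the 5 of them with under 200 counts over the 4 E11.5 libraries it was 0.51 and 0.47, and for the other 29 it was 0.19 and 0.15. The 5 largest differences were those of Egr3 in wild type (1.10, from 2 and 0 counts), Egr1 in the mutant (0.95), Fosb in the mutant (0.90), Fos in wild type (0.81, from 82 and 55 counts) and Zfp36 in the mutant (0.62, from 85 and 107 counts). No library was the high one throughout: Fos was higher in wild-type replicate 1, Egr1 in wild-type replicate 2 and mutant replicate 2, and Jun in wild-type replicate 2. The summed level of the 25 immediate early genes was 327 and 302 CPM (mutant), 335 and 342 (wild type) and 368 (E10.5). The 10 chaperone genes summed to 7092 and 7336 CPM (mutant), 7874 and 8585 (wild type) and 8954 (E10.5), most of it from Hspa8 and Hsp90aa1.

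**Figure D3:**
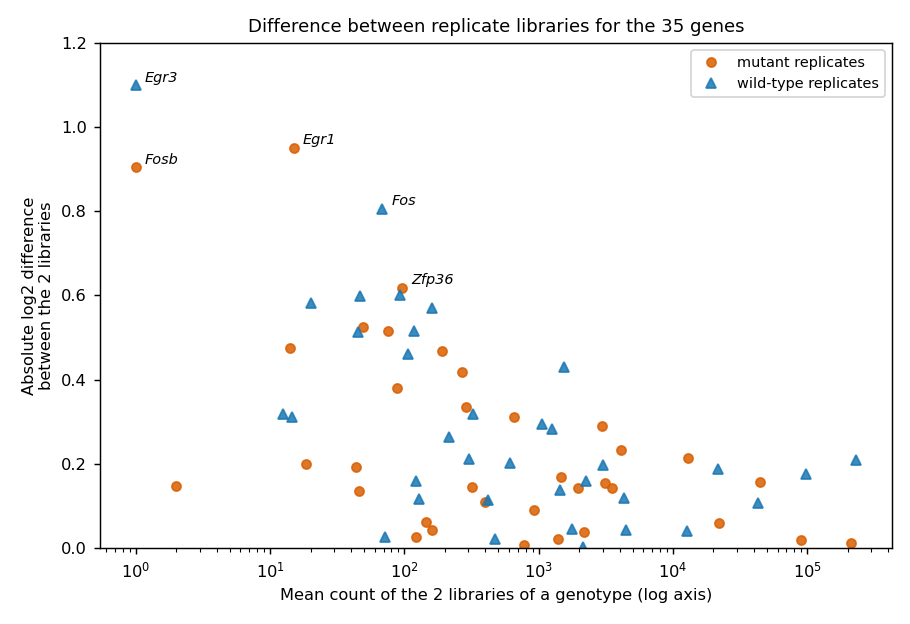
Absolute log2 difference between the 2 libraries of a genotype (log2 of TMM-scaled CPM, prior count 2) against their mean count on a log axis, for the 35 genes, with orange circles for mutant and blue triangles for wild-type replicates. The labelled genes, Egr3, Egr1, Fosb, Fos and Zfp36, exceed 0.61, and their points lie towards the left, at low counts.

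The E10.5 library was set beside wild-type E11.5 without a test, because it has no replicate, and stage, dissected part and strain label differ together and cannot be told apart. A gene was called where E10.5 lay 2-fold or more above both wild-type libraries, or 2-fold or more below both. By that rule 8 of 34 genes (23.5%) were higher at E10.5, against 4.06% of the 16339 genes compared, and 3 (8.82%) were lower, against 12.5%. The median log2 difference was 0.49 over the 34 genes and 0.01 over all genes compared, and 24 of 34 (70.6%) lay above 0, against 50.4%. The number of higher genes was 10 against wild-type replicate 2 alone and 9 against replicate 1 alone. Summed macrophage markers were 15.4 CPM at E10.5 against 50.4 and 63.8 in wild type, neuron and Schwann cell markers 28.6 against 68.6 and 67.5, and erythroid markers 3404 against 2406 and 2319.8. Reads outside genes took 24.3% of read lines at E10.5 against 39.2% and 30.3%. The part of these in the differences was not tested.

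**Figure D4:**
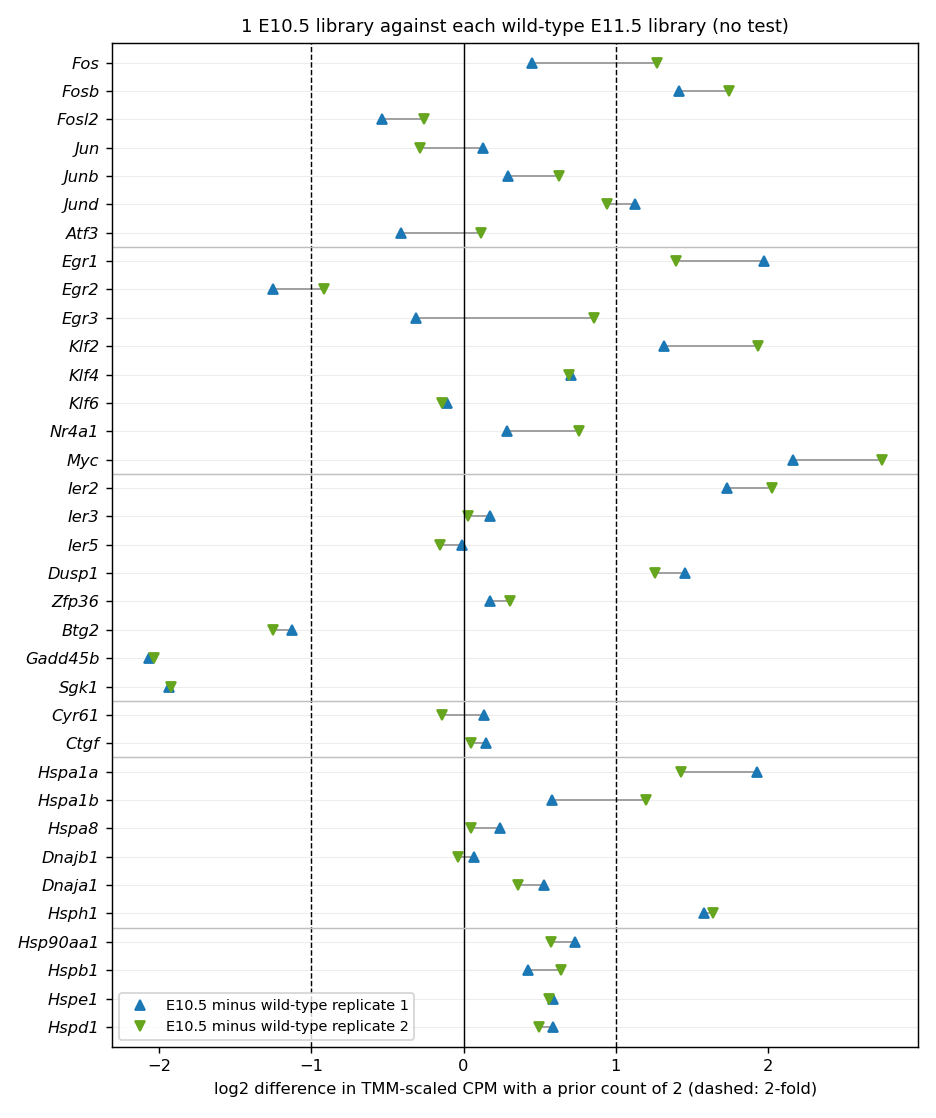
Log2 difference of the E10.5 library from wild-type replicate 1 (blue, pointing up) and replicate 2 (green, pointing down) for the 35 genes, with dashed lines at 2-fold. Myc lies farthest to the right (2.16 and 2.75) and Gadd45b farthest to the left (-2.07 and -2.03), followed by Sgk1 (-1.94 and -1.92).

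The genes higher at E10.5 came from several groups. Myc had 14.8 CPM at E10.5 against 3.97 and 2.56 in wild type, log2 differences of 2.16 and 2.75. Ier2 had 77.8 CPM against 28.3 and 22.4 (1.73 and 2.03), and Dusp1 12.9 against 5.63 and 6.29 (1.46 and 1.26). Egr1 had 1.09 CPM against 0.310 and 0.466, and Klf2 had 2.47 against 1.17 and 0.734. Fosb had 0.784 CPM, or 66 counts, against 0.332 and 0.251. Among chaperones Hsph1 had 228 CPM at E10.5 against 92.1 and 86.0 (1.58 and 1.64) and Hspa1a 2.39 against 0.731 and 1.02 (1.93 and 1.43). Hspa1b, with 2.88 CPM against 2.31 and 1.45, passed 2-fold against replicate 2 alone, as did Fos with 2.07 against 1.82 and 0.985. All 10 chaperone genes had a mean log2 difference above 0, where 50.4% of all genes compared did. Jund had 102 CPM at E10.5 against 56.5 and 62.4 (1.13 and 0.94), while Jun had 23.9 against 26.4 and 34.2, so the ratio of Jund to Jun counts was 4.28 at E10.5 and 2.14 and 1.82 in wild type. Hspa8 (0.24 and 0.05) and Dnajb1 (0.07 and -0.04) were nearly level between stages, at 4240.2 and 72.4 CPM in the E10.5 library. The other abundant chaperones were higher by less than 2-fold. Hsp90aa1 had 2553 CPM at E10.5, Hspd1 1042 and Dnaja1 485. Below 2-fold in either direction also stayed Klf6 (27.1 CPM at E10.5), Ier5 (35.3), Cyr61 (17.2), Ctgf (7.45) and Zfp36 (2.53), and Egr3 had 2 counts.

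The 3 genes lower at E10.5 all belonged to the early response and feedback group. Gadd45b had 1.89 CPM at E10.5 against 9.69 and 9.19 in wild type. Sgk1 had 9.28 CPM against 43.0 and 41.5, and Btg2 10.48 against 27.8 and 29.4 (-1.13 and -1.25). Btg2 and Dusp1, whose promoters both hold the TGACGTCA palindrome shown above, thus lay on opposite sides. Egr2 was at 7 counts at E10.5 against 13 and 12, too few to place it. Both comparisons share the wild-type libraries. Sgk1 and Gadd45b had mutant levels (14.3 and 14.5, and 5.63 and 6.27 CPM) between those of E10.5 and wild type. Ier2 also had mutant levels (37.7 and 34.4 CPM) between those of the 2 other groups. Dnajb1 was not between them: its mutant levels (68.2 and 62.1 CPM) lay below E10.5 (72.4) and wild type (83.5 and 87.4). Hspa1a and Fosb were lowest in the mutant and highest at E10.5. The share of all genes with such middle mutant levels was not counted.

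Further genes of these pathways, listed by pathway, changed in few places in the mutant. Of 34 other immediate early genes tested out of 40 listed, 2 rose and 2 fell (11.8% against 7.16%), with a median of 0.02. Hes1, a NOTCH-responsive repressor, fell from 51.4 to 26.1 CPM (-0.99, SE 0.10, adjusted p = 0.000114 by edgeR). Bhlhe40, a clock-linked repressor, rose from 1.57 to 3.36 CPM (1.09, SE 0.26), Gem, a small GTPase, rose from 2.47 to 4.84 CPM (0.94, SE 0.22), and Nfkbia, the inhibitor of NF-kappaB, fell from 35.6 to 27.0 CPM (-0.41, SE 0.11, adjusted p = 0.0485). Of 20 SRF, ETS, CREB and MAP kinase regulators 1 fell, namely Srf itself, from 36.0 to 27.9 CPM (-0.38, SE 0.10, adjusted p = 0.0395 by edgeR), with a median of -0.03. Of 40 other chaperones and co-chaperones 1 rose, the small heat shock gene Hspb8, from 24.2 to 36.9 CPM (0.59, SE 0.11, adjusted p = 0.00741 by edgeR), with a median of -0.03. By edgeR 0 of 13 YAP and TEAD genes (4 or 30.8% at an unadjusted p below 0.05), 0 of 14 HSF and proteostasis partners (2 or 14.3%) and 0 of 20 genes of the unfolded protein and integrated stress responses (7 or 35%, median -0.16) passed, beside 19.4% at that level among all genes tested. Hes1 kept its call without each of the 4 libraries. Those of Bhlhe40 (adjusted p = 0.289) and Hspb8 (0.0684) ended without mutant replicate 1, that of Gem (0.0989) without mutant replicate 2, that of Srf without either (0.132 and 0.349), and that of Nfkbia without mutant replicate 2 (0.434) or wild-type replicate 2 (0.104).

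By the 2-fold rule several listed genes also differed at E10.5. Srf had 62.5 CPM at E10.5 against a wild-type mean of 36.0, Hsp90ab1, the constitutive HSP90, 3133 against 1711 and 1788, and Bag3, a partner of HSP70, 5.50 against 2.90 and 2.81. The small heat shock genes Cryab, Hspb2 and Hspb7 were lower at E10.5, with 10, 4 and 0 counts against 50 and 44, 31 and 47, and 40 and 38 in wild type. Against 4.06% higher and 12.5% lower among all genes compared, the shares were 2.5% and 7.5% of 40 other chaperones (1 and 3 genes), 15% and 0% of 20 SRF pathway genes (3 and 0), and 8.57% and 0% of 35 other immediate early genes (3 and 0). They were 14.3% and 7.14% of 14 HSF and proteostasis partners (2 and 1), 0% and 5% of 20 genes of the unfolded protein and integrated stress responses (0 and 1), and 0% in both directions of 13 YAP and TEAD genes. The medians of these 6 lists lay between 0.16 and 0.34, against 0.01 over all genes compared.

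Among the cell type markers, Hbb-bh1 (0.81) and the macrophage genes Mrc1 (0.62) and Lyz2 (1.19) rose in the mutant, and Krt8 (-0.56), Krt14 (-0.42), Tubb3 (-1.54) and Stmn2 (-1.57) fell, with 0 of 8 endothelial markers past the edgeR test and 2 (25%) at an unadjusted p below 0.05. In the limb mesenchyme list Prrx1 (0.49) rose and Msx1 (-0.84), Twist1 (-0.48) and Prrx2 (-0.39) fell.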

How the data were processed

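The authors deposited 1 table per library of read counts by gene symbol, which hold whole numbers. The submitters' processing notes name HTSeq, TopHat2 2.0.13, Cufflinks 2.1.1, SAMtools and mm9, and annotation and strand setting were not stated in the sources used. Ribosomal RNA had been depleted and stranded libraries read from both ends, per the labels' protocols. The 5 lines of HTSeq totals entered no library size or test. They held reads outside genes (24.3% to 39.6% of read lines), reads without a unique alignment (9.1% to 14.8%) and ambiguous reads (0.751% to 1.14%). CPM values used reads in genes, unscaled. Across the whole table, genes kept by filterByExpr (a count of 10, a total of 15) were TMM-scaled. They were tested by the quasi-likelihood method of edgeR 4.0.16 in R 4.3.3, after a check on simulated data. Taken over all genes before that filter, the TMM factors of the E11.5 libraries ran from 0.977 to 1.01. DESeq2 1.42.0, the newer quasi-likelihood estimate, other scalings, no filter, all 5 libraries in the fit, a replicate block, a prior count of 0.5 at E10.5 and leaving out each library were alternatives. SE is the log2 fold change divided by the square root of F. Window sharing and exon lengths used GENCODE transcripts of GRCm38, not the authors' annotation. The 35 genes, role groups and lists were chosen with earlier results of these data known. Values in every library are given for genes that passed, the 2 most abundant of each role group, those called at E10.5 (2-fold rule) and the 5 of largest replicate difference, and listed genes are named when they passed. Genes named beyond that (among them Fosl2, Junb, Atf3, Egr2, Klf4, Nr4a1, Ier3, Hspa1b, Hspe1 and Hspb1) were chosen after their values were seen.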

Additional observations from a re-analysis of the deposited data

How the results depend on the processing

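The call of Sgk1 held under every alternative run, and the other 4 called genes kept their direction. Uncalled members that changed sign without a library, as given above or for Klf2, Klf4, Nr4a1, Egr2 and Myc, then lay between -0.28 (Egr2) and 0.17 (Klf2). Counts of called genes moved more. In place of 1 risen member there were 0 with scaling to library size only, and 2 with no filter, with DESeq2 and with the replicate block, where Ier5 passed (adjusted p = 0.0461). Without single libraries the risen members numbered 0 to 1, the fallen members (Fosb included) 2 to 8 in place of 4, and the called pathway genes 3 to 20 in place of 6, the highest of the latter 2 without wild-type replicate 1. Over all genes, 959 rose with no filter in place of 617, 410 to 1113 without single libraries, and 373 to 905 fell in place of 540. DESeq2 gave Fosb no adjusted p. In these leave-one-out fits the lone library of a genotype is assumed to vary like the other group. Replicate numbers are shared between genotypes, but no label says that they mark a common litter or day, and same-numbered libraries did not deviate together (correlation of deviations -0.08 across 16166 genes). The block changed no other member's call. With 2 libraries per genotype and 1 at E10.5, and under 100 counts per library for several genes, small differences in Egr1, Egr2, Fosb and Hspa1a are not detectable at this depth.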
